A study of Homo sapiens with 9 samples.

Results

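A set of 10 genes of macroautophagy were followed in Huh7 cells treated with PGG: ULK1, BECN1, WIPI1, ATG5, ATG7, ATG12, MAP1LC3B, GABARAPL1, SQSTM1 and TFEB. They were chosen by symbol, as every probe set paired with exactly 1 gene symbol that equals 1 of these names, which gave 27 probe sets for 10 genes among 54613 probe sets tested and 19775 genes. Huh7 is an established human hepatocellular carcinoma cell line, and PGG, penta-O-galloyl-beta-D-glucopyranoside, is a plant polyphenol that was dissolved in PBS. Each of 3 groups had 3 Affymetrix arrays, called biological replicates in the labels: Huh7 cells in DMEM that received PBS alone for 48 hours, and cells under 0.1 mg/mL PGG for either 6 or 48 hours. The titles and the methods give 48 hours for the PBS arrays, whereas their descriptions give 0 hours of PGG, and PBS at 6 hours was not analysed here, so that the comparison at 6 hours also contains a difference in time in culture. The comparisons ask which transcripts changed early, at 6 hours, and which changed late, at 48 hours, under PGG.

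Macroautophagy encloses cytoplasm in a membrane, the autophagosome, and delivers it to the lysosome for breakdown. The ULK kinase complex starts the process, the class III PI3-kinase complex around Beclin 1 marks the membrane with the lipid PI3P, WIPI proteins read that lipid, and a pair of ubiquitin-like conjugation reactions attach proteins of the ATG8 family to the growing membrane, where receptors such as p62 bring in cargo. In hepatocytes the pathway turns over protein aggregates, mitochondria and lipid droplets, and transcripts of its machinery report only on the supply of components, not on the flux through the pathway.

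The arrays had similar scale, with medians of 5.16 to 5.20 on the log2 scale, and correlations between arrays of 1 group across probe sets were 0.993 to 0.998. In mean signal, the 9 measured genes of 10 liver and hepatoma markers lay between the 83.5 percentile of all probe sets (TTR) and the 99.9 percentile (ALB and AFP). Markers of other cell types lay lower but were spread, from the 16.7 (PTPRC) to the 56 percentile (CD3E) for leukocytes, 15.7 (CDH5) to 66.2 (PECAM1) for endothelium, 29.4 (COL3A1) to 78.6 (COL1A1) for fibroblasts and 19.2 (KRT14) to 49.5 (KRT5) for squamous epithelium. The ACTB gap, the log2 signal of the 3′ control probe set of ACTB minus that of its 5′ control and a measure of intact RNA, was 0.96 to 1.57 on the PBS arrays, 1.13 to 1.23 at 6 hours and 2.14, 4.03 and 2.67 on the arrays of replicates 1, 2 and 3 at 48 hours, so that every 48-hour array lay above every other array. The same gap of GAPDH was 1.83 on the array of replicate 2 at 48 hours and 0.13 to 0.39 on the other 8 arrays. The part of this gap in the results was not tested, and values with the ACTB gap as a covariate are given for the members at 48 hours and for the counts over the lists, not for single listed genes. Signals are per amount of total RNA, so fewer transcripts per cell and fewer cells that carry them cannot be told apart.

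The 4 members with the largest rises at 48 hours were WIPI1, MAP1LC3B, ULK1 and GABARAPL1. The bases ahead of their RefSeq transcription starts are shown because the members rose to different extents and did not all run the same way at 6 hours. Each is the 250 bases upstream, 5′ to 3′ on the strand of the gene, from RefSeq on GRCh38.p14. WIPI1 lies on the minus strand at chr17:68457497-68457746, MAP1LC3B on the plus strand at chr16:87392086-87392335, ULK1 on the plus strand at chr12:131894372-131894621 and GABARAPL1 on the plus strand at chr12:10212627-10212876. Capitals mark any match to 1 of 8 short motifs named after the sequences.
WIPI1: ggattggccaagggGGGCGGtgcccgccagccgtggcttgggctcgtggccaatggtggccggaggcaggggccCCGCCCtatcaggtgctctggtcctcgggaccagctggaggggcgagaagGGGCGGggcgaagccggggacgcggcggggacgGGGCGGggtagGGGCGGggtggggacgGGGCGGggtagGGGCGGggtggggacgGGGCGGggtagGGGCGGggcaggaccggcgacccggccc
MAP1LC3B: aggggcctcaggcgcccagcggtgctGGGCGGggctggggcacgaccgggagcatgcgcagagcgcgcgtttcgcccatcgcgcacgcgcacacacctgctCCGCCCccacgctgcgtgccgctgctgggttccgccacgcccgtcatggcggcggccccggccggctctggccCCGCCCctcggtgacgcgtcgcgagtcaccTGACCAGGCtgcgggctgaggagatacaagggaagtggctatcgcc
ULK1: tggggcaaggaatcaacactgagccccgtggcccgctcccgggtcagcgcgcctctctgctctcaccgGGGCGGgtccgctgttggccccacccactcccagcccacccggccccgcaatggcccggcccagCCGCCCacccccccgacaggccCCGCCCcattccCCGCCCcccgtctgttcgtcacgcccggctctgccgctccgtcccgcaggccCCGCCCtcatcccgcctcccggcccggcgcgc
GABARAPL1: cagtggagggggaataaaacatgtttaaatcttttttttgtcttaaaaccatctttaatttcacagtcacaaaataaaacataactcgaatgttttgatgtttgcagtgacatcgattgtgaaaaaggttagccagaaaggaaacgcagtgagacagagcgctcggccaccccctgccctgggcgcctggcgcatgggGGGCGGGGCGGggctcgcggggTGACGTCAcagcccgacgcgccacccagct

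The motifs were searched on both strands in all 15 RefSeq windows of the 10 genes and in 35116 windows of the same length, and they were picked after the sequences and the values had been seen, so the counts are a description without a test. The GC box GGGCGG, the motif of SP1 family factors, was found in 12 of the 15 member windows and in 42.6% of all windows. These 12 windows came from 8 of the 10 genes, and the WIPI1 window held 9 of the boxes. Next to the start of GABARAPL1 stood the cAMP response element TGACGTCA, which 1.65% of all windows held, 30 to 23 bases upstream. The MAP1LC3B window held a match to the antioxidant response element TGACNNNGC, found in 10.9% of all windows, 46 to 38 bases upstream. The ACGTG core of the hypoxia response element, found in 18.5% of all windows, stood in the windows of ATG5 and ATG12. No member window held the E-box CACGTG, which 6.34% of all windows held, and this E-box is the centre of the longer CLEAR motif of TFEB family factors, which 0.308% of all windows held. The FOXO motif GTAAACA, in 2.98% of all windows, and TGATGNAA, the core of the motif bound by ATF4 with its partners, in 3.14%, were likewise in no member window. These counts cover only these letters in these windows. The windows of BECN1 and ATG5 lay within the spans of their genes, so bases ahead of those spans were not searched.

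At 48 hours the members went in different directions. By the probe set of highest mean signal across the 9 arrays (highest-mean probe set), which stands for a gene unless another is named, 5 of the 10 members rose against PBS (ULK1, WIPI1, MAP1LC3B, GABARAPL1 and ATG5), 2 fell (ATG7 and SQSTM1) and 3 did not pass the test (BECN1, ATG12 and TFEB). The test was limma at a Benjamini-Hochberg adjusted p under 0.05, and over all genes 22.9% were called higher and 23.2% lower. The median log2 difference of the members was 0.21, against -0.02 over all genes. At 6 hours 2 members rose (WIPI1 and ULK1), 5 fell (MAP1LC3B, GABARAPL1, BECN1, ATG5 and ATG12) and 3 did not pass the test, where 15.5% of all genes were called higher and 15.5% lower. The 2 comparisons share the PBS arrays, and their values are therefore given side by side rather than correlated.

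**Figure D1:**
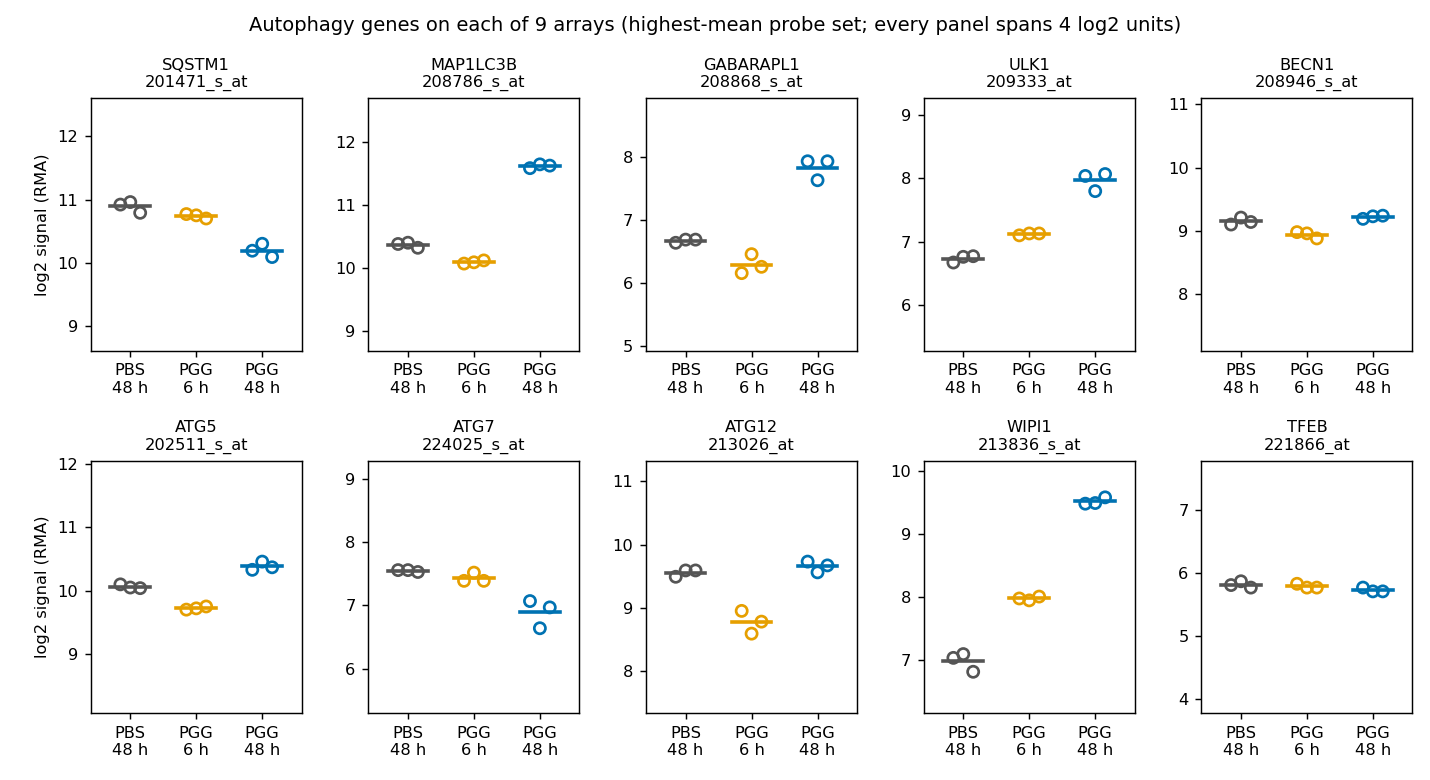
Log2 signal of the 10 autophagy genes on each of the 9 arrays, with 3 open points per group (replicates 1 to 3 from left to right) and a bar at the group mean. Every panel spans 4 log2 units, so heights of steps can be compared between panels. WIPI1 climbs from 6.82 to 7.10 in PBS to 9.48 to 9.58 at 48 hours, MAP1LC3B and GABARAPL1 dip at 6 hours before they rise, and TFEB stays between 5.71 and 5.87.

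ULK1 encodes the kinase that starts autophagosome formation. Its only probe set read 6.67, 6.76 and 6.77 on the PBS arrays, 7.10, 7.13 and 7.13 at 6 hours and 8.04, 7.80 and 8.07 at 48 hours on the log2 scale. The 3 groups did not overlap, with PBS lowest and 48 hours highest. ULK1 was higher by 0.39 at 6 hours (SE 0.08, adjusted p = 0.0038) and by 1.24 at 48 hours (SE 0.08, adjusted p = 2.55e-07), a 2.36-fold change. With the ACTB gap as a covariate the difference at 48 hours was 1.41. The gene spans 131894622 to 131923150 on chromosome 12.

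The other subunits of the ULK complex rose with it at 48 hours. All 5 measured genes of the list passed the test as higher at 48 hours, with a median log2 difference of 0.86, against 2 higher and 1 lower at 6 hours. The lists were chosen with earlier results of these data known, so their counts are a description without a test. For this and the later lists, the shares of all genes were 22.9% higher and 23.2% lower at 48 hours. At 6 hours they were 15.5% each way. ATG13, the scaffold subunit, showed rises of 0.21 and 1.22 at 6 and 48 hours. RB1CC1, which encodes the large subunit FIP200, fell by 0.75 on the log2 scale early and lay 0.86 above PBS late. Over the 122 listed genes that are no members, the standard error of a difference had a median of 0.08 and ran from 0.06 to 0.50.

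BECN1 encodes Beclin 1, the regulatory subunit of the class III PI3-kinase complex. It read 9.10, 9.21 and 9.14 in PBS, 8.98, 8.96 and 8.88 at 6 hours and 9.19, 9.23 and 9.24 at 48 hours. The 6-hour arrays lay below all others and the PBS and 48-hour arrays overlapped. The difference from PBS was -0.21 at 6 hours (SE 0.06, adjusted p = 0.0296) and 0.07 at 48 hours (SE 0.06, 95% interval -0.07 to 0.21, adjusted p = 0.432), or 0.029 at 48 hours under the ACTB covariate (adjusted p = 0.885). The call at 6 hours was lost without PBS replicate 2 (-0.18, adjusted p = 0.101), without PBS replicate 3 (adjusted p = 0.0638), and without PGG 6 h replicate 1, 2 or 3 (adjusted p = 0.0506, 0.0657 and 0.119), and over all alternatives its adjusted p ran from 0.00726 to 0.709. A second probe set, 208945_s_at, gave -0.38 at 6 hours (adjusted p = 0.00998) and -0.21 at 48 hours (adjusted p = 0.106). A low probe set, 1561652_at, stayed between 3.86 and 4.12 on the 9 arrays.

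Several partners of Beclin 1 in that complex rose at 48 hours. Of the 8 genes of the list 5 were higher and 1 lower at 48 hours, with a median of 0.94, against 2 higher and 3 lower at 6 hours. ATG14, which directs the complex to autophagosome formation, was 0.15 above PBS at 6 hours, without passing the test, and rose by 2.11 at 48 hours. UVRAG, the alternative partner that serves endosomes and autophagosome maturation, fell by 0.39 early, at 6 hours, and rose by 1.48 late, at 48 hours. NRBF2, an activating subunit, rose by 0.88 and 1.46 and PIK3C3, the catalytic subunit, rose by 0.28 and 1.36 at 6 and 48 hours. PIK3R4, the membrane-anchored subunit, fell by 0.69 and fell by 0.24 (adjusted p = 0.0384 at 48 hours).

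WIPI1, on chromosome 17 at 68421281 to 68457496, encodes a PI3P-binding protein of the early autophagosome and showed the largest change among the members. Its signal was 7.04, 7.10 and 6.82 in PBS, 7.98, 7.95 and 8.01 at 6 hours and 9.48, 9.49 and 9.58 at 48 hours. The groups were fully separated in the order PBS, 6 hours, 48 hours. WIPI1 rose by 0.99 at 6 hours (SE 0.08, adjusted p = 5.90e-06), a 1.99-fold change, and by 2.53 at 48 hours (SE 0.08, adjusted p = 2.09e-09), a 5.78-fold change. The other probe set, 203827_at, gave 0.92 and 2.55 at the same times, and with the ACTB gap as a covariate the difference at 48 hours was 2.56. At stricter limits, a log2 difference beyond 1.5 with an adjusted p under 0.005 from limma, WIPI1 was the only member called at 48 hours by its highest-mean probe set, where 5.22% of all genes were called, and 0 members were called at 6 hours, where 0.89% of all genes were. The methods do not state whether 1.5 is meant on the log2 scale. Read as a fold of 1.5 at the same adjusted p, the limits called 6 members at 48 hours, where 25% of all genes were called, and 2 members at 6 hours, where 11.1% were.

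WIPI1 stood in a list of 10 PI3P effectors and genes of membrane and lipid supply, of which 8 were higher and 1 lower at 48 hours, with a median of 0.76. At 6 hours 2 were higher and 2 lower. WIPI2, the paralogue that recruits the conjugation machinery, had rises of 0.84 and 1.30 at the earlier and the later time. ZFYVE1, which encodes the PI3P-binding protein DFCP1 of the omegasome, and TMEM41B, which encodes a lipid scramblase, did not pass the test at 6 hours and rose by 1.88 and 1.58 at 48 hours. VMP1, the partner of TMEM41B at the endoplasmic reticulum, fell by 0.90 at 48 hours (SE 0.20, adjusted p = 0.00426). Its probe set was dim and spread in PBS, with 6.68, 5.88 and 5.81 there and 5.49, 5.16 and 5.02 at 48 hours. ATG2B, which encodes a lipid transfer protein, fell by 0.84 early and was 0.16 above PBS at 48 hours without passing the test.

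**Figure D2:**
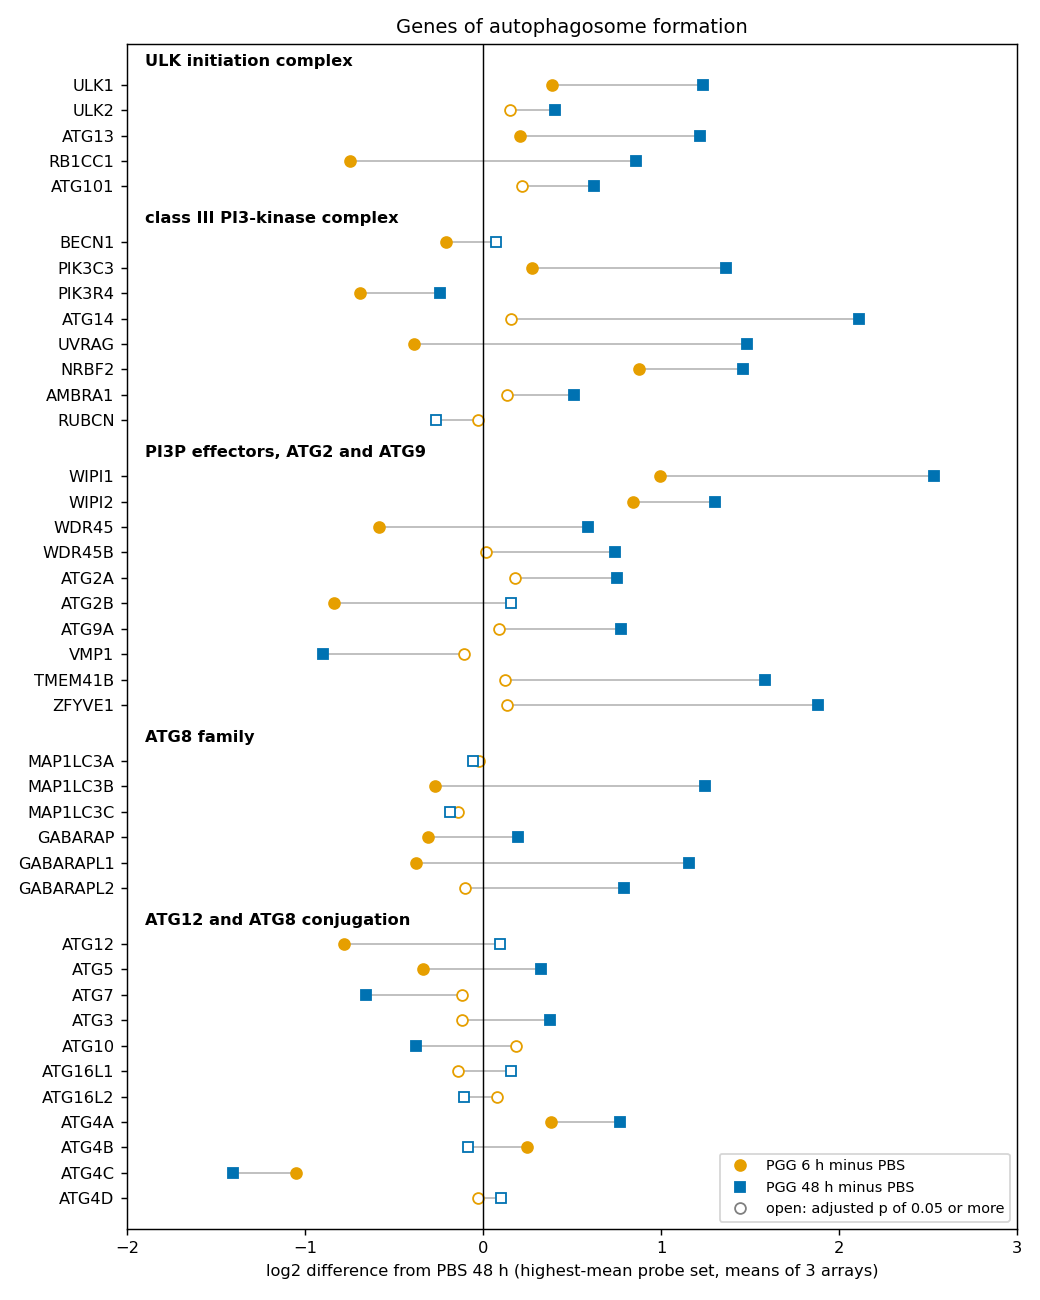
Log2 difference from PBS at 6 hours (circles) and at 48 hours (squares) for the measured genes of 5 lists of autophagosome formation, by the highest-mean probe set and as means of 3 arrays against 3. Open symbols did not reach an adjusted p under 0.05, and a grey line joins the 2 times of a gene. Of the 5 ULK complex genes all 5 were higher at 48 hours, of the 11 conjugation genes 3 were higher and 3 lower, and 3 of the 6 ATG8 genes were lower at 6 hours.

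ATG12 encodes the ubiquitin-like protein that is joined to ATG5, and lies on chromosome 5 at 115828200 to 115841565. It read 9.49, 9.59 and 9.59 in PBS, 8.95, 8.59 and 8.78 at 6 hours and 9.73, 9.56 and 9.67 at 48 hours. The 6-hour arrays lay below the rest, and the arrays of PBS and 48 hours overlapped. ATG12 fell by 0.78 at 6 hours (SE 0.09, adjusted p = 9.28e-05) and was 0.10 above PBS at 48 hours (95% interval -0.11 to 0.30, adjusted p = 0.468), or 0.20 above it under the ACTB covariate (adjusted p = 0.411). All 3 probe sets of ATG12 were lower at 6 hours, whereas at 48 hours 204833_at was higher by 0.41 and 213930_at fell by 0.25, so the probe sets disagreed at the later time.

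ATG5 encodes the protein to which ATG12 is joined. Its signal was 10.10, 10.05 and 10.04 in PBS, 9.70, 9.72 and 9.75 at 6 hours and 10.33, 10.46 and 10.37 at 48 hours. The groups did not overlap, with 6 hours lowest and 48 hours highest. At 6 hours ATG5 fell by 0.34 (SE 0.06, adjusted p = 0.00178), and at 48 hours it rose by 0.32 (SE 0.06, adjusted p = 0.00131). Its 3 probe sets lay between -0.34 and -0.31 at 6 hours, but the other 2 gave 0.17 and -0.19 at 48 hours and did not pass the test. The rise at 48 hours was not called on the mean of the 3 probe sets (0.10, adjusted p = 0.185) or with the ACTB gap as a covariate (0.24, adjusted p = 0.0983), and over all alternatives its adjusted p ran from 1.80e-04 to 0.185.

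ATG7 encodes the enzyme that activates both ubiquitin-like systems. It read 7.56, 7.56 and 7.53 in PBS, 7.39, 7.52 and 7.39 at 6 hours and 7.07, 6.64 and 6.97 at 48 hours. All 48-hour arrays lay below the others, with replicate 2, the array with the widest ACTB gap, lowest. The difference was -0.12 at 6 hours (adjusted p = 0.492) and ATG7 fell by 0.66 at 48 hours (SE 0.10, adjusted p = 2.80e-04), or fell by 0.53 without that array. With the ACTB gap as a covariate the difference at 48 hours was -0.32 and not called (adjusted p = 0.0508), within a range of 1.56e-04 to 0.275 over all alternatives. Of the 4 probe sets 3 were lower at 48 hours, and the fourth, 1569827_at, ran the other way, from 3.24, 3.31 and 3.41 in PBS to 4.52, 4.41 and 4.74 at 48 hours, a rise of 1.24 in a signal below the array medians. The mean of all 4 probe sets was accordingly -0.09 at 48 hours (adjusted p = 0.275). Where these probe sets lie in the ATG7 transcripts was not analysed here.

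Of the 11 conjugation genes as a list, 3 were higher and 3 lower at 48 hours, with a median of 0.10, and 2 were higher and 3 lower at 6 hours. Both shares at 48 hours, 27.3%, lay near those of all genes, 22.9% and 23.2%. ATG4C, which encodes a protease that trims ATG8 proteins, fell by 1.05 early and fell by 1.40 late. Its paralogue ATG4A rose by 0.38 and 0.77. ATG3, the conjugating enzyme for ATG8 proteins, rose by 0.37 at 48 hours and ATG10, the conjugating enzyme for ATG12, fell by 0.38.

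MAP1LC3B encodes LC3B, the ATG8 protein most used to follow autophagosomes, and spans 87392336 to 87404774 on chromosome 16. The signal was 10.38, 10.40 and 10.32 in PBS, 10.07, 10.09 and 10.12 at 6 hours and 11.58, 11.64 and 11.62 at 48 hours. The groups did not overlap, with 6 hours lowest and 48 hours highest. At 6 hours MAP1LC3B fell by 0.27 (SE 0.06, adjusted p = 0.00513), and at 48 hours it rose by 1.25 (SE 0.06, adjusted p = 2.76e-08), a 2.37-fold change. The second probe set, 208785_s_at, was not called at 6 hours (-0.14, adjusted p = 0.311) and rose by 1.76 at 48 hours. Under the ACTB covariate the rise at 48 hours was 1.21. Signal from MAP1LC3B2, a near-identical gene copy, could not be separated here.

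GABARAPL1, on chromosome 12 at 10212877 to 10223128, encodes an ATG8 protein of the GABARAP branch. It read 6.64, 6.69 and 6.69 in PBS, 6.16, 6.46 and 6.26 at 6 hours and 7.93, 7.63 and 7.93 at 48 hours, again with 6 hours lowest, 48 hours highest and no overlap. At 6 hours GABARAPL1 fell by 0.38 (SE 0.10, adjusted p = 0.0161), and at 48 hours it rose by 1.16 (SE 0.10, adjusted p = 2.80e-06), a 2.23-fold change. The call at 6 hours was lost without PBS replicate 3 (-0.37, adjusted p = 0.0511), PGG 6 h replicate 1 (-0.31, adjusted p = 0.0731) or PGG 6 h replicate 3 (-0.36, adjusted p = 0.0601). It was also lost by the t-test of the methods (adjusted p = 0.0624). Over all alternatives the adjusted p ran from 0.00211 to 0.0731. The other probe set, 208869_s_at, fell by 0.65 early (adjusted p = 0.00164) and rose by 1.79 late. The rise of GABARAPL1 at 48 hours was 1.39 under the ACTB covariate.

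Within the ATG8 family of 6 genes, the count at 6 hours was 3 lower and 0 higher, and that at 48 hours 4 higher and 0 lower, with medians of -0.21 and 0.49. Without the members MAP1LC3B and GABARAPL1, 1 of 4 was lower at 6 hours and 2 of 4 were higher at 48 hours, with medians of -0.12 and 0.07. GABARAPL2 was -0.10 from PBS at 6 hours without passing the test and rose by 0.79 at 48 hours. GABARAP fell by 0.31 early and rose by 0.19 late (adjusted p = 0.0465). The differences of MAP1LC3A were -0.02 and -0.06 and passed the test at neither time, and MAP1LC3C did not pass it either. The pattern of a fall at 6 hours and a rise at 48 hours that MAP1LC3B, GABARAPL1 and ATG5 showed was found in 3.04% of all genes, and the pattern of a rise at both times that WIPI1 and ULK1 showed in 8.53%.

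SQSTM1 encodes p62, the receptor that ties ubiquitylated cargo to ATG8 proteins and is itself degraded in autophagosomes, and it lies on chromosome 5 at 179806393 to 179838078. The signal was 10.92, 10.96 and 10.79 in PBS, 10.77, 10.75 and 10.70 at 6 hours and 10.19, 10.30 and 10.09 at 48 hours. The 48-hour arrays lay below all others. The difference was -0.15 at 6 hours (SE 0.07, adjusted p = 0.196), and SQSTM1 fell by 0.70 at 48 hours (SE 0.07, adjusted p = 1.66e-05), or was 1.62-fold lower. With the ACTB gap as a covariate the difference at 48 hours was -0.79. Of its 5 probe sets 4 were lower at 48 hours, and 244804_at gave -0.29 (adjusted p = 0.0523).

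At 6 hours the SQSTM1 probe sets disagreed. The probe set 213112_s_at read 7.38, 7.37 and 7.33 in PBS, 7.96, 7.82 and 7.96 at 6 hours and 6.95, 6.47 and 6.86 at 48 hours. Against PBS it was higher by 0.55 at 6 hours (limma, adjusted p = 0.00334) and lower by 0.60 at 48 hours. In contrast, 239004_at fell by 0.35 at 6 hours (adjusted p = 0.00997), and the other 3 did not pass the test.

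SQSTM1 ran against most of the cargo receptors at 48 hours. Of 14 receptor genes 8 were higher and 3 lower, with a median of 0.31, after 4 higher and 4 lower at 6 hours. The share lower at 48 hours, 21.4%, lay near the 23.2% of all genes. BNIP3L and BNIP3, receptors on mitochondria, rose early by 0.93 and 0.74 and late by 2.43 and 2.27. OPTN, a receptor for ubiquitylated cargo, fell by 0.58 early and rose by 1.82 late. NBR1, which is related to p62 in domain structure, rose by 1.52 at 48 hours, while FUNDC1, another receptor on mitochondria, fell by 0.56.

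TFEB, on chromosome 6 at 41683978 to 41736223, encodes a transcription factor of autophagy and lysosome genes whose activity is set chiefly by mTORC1 phosphorylation and its location in the cell. Its signal was 5.81, 5.87 and 5.77 in PBS, 5.83, 5.77 and 5.77 at 6 hours and 5.77, 5.71 and 5.71 at 48 hours. The groups overlapped or touched. The difference was -0.03 at 6 hours (95% interval -0.16 to 0.11, adjusted p = 0.822) and -0.09 at 48 hours (95% interval -0.22 to 0.05, adjusted p = 0.307), or -0.054 at 48 hours under the ACTB covariate (adjusted p = 0.764). The dimmer probe set 50221_at fell by 0.40 at 6 hours (adjusted p = 0.0133) and gave -0.05 at 48 hours (95% interval -0.28 to 0.17, adjusted p = 0.734).

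**Figure D3:**
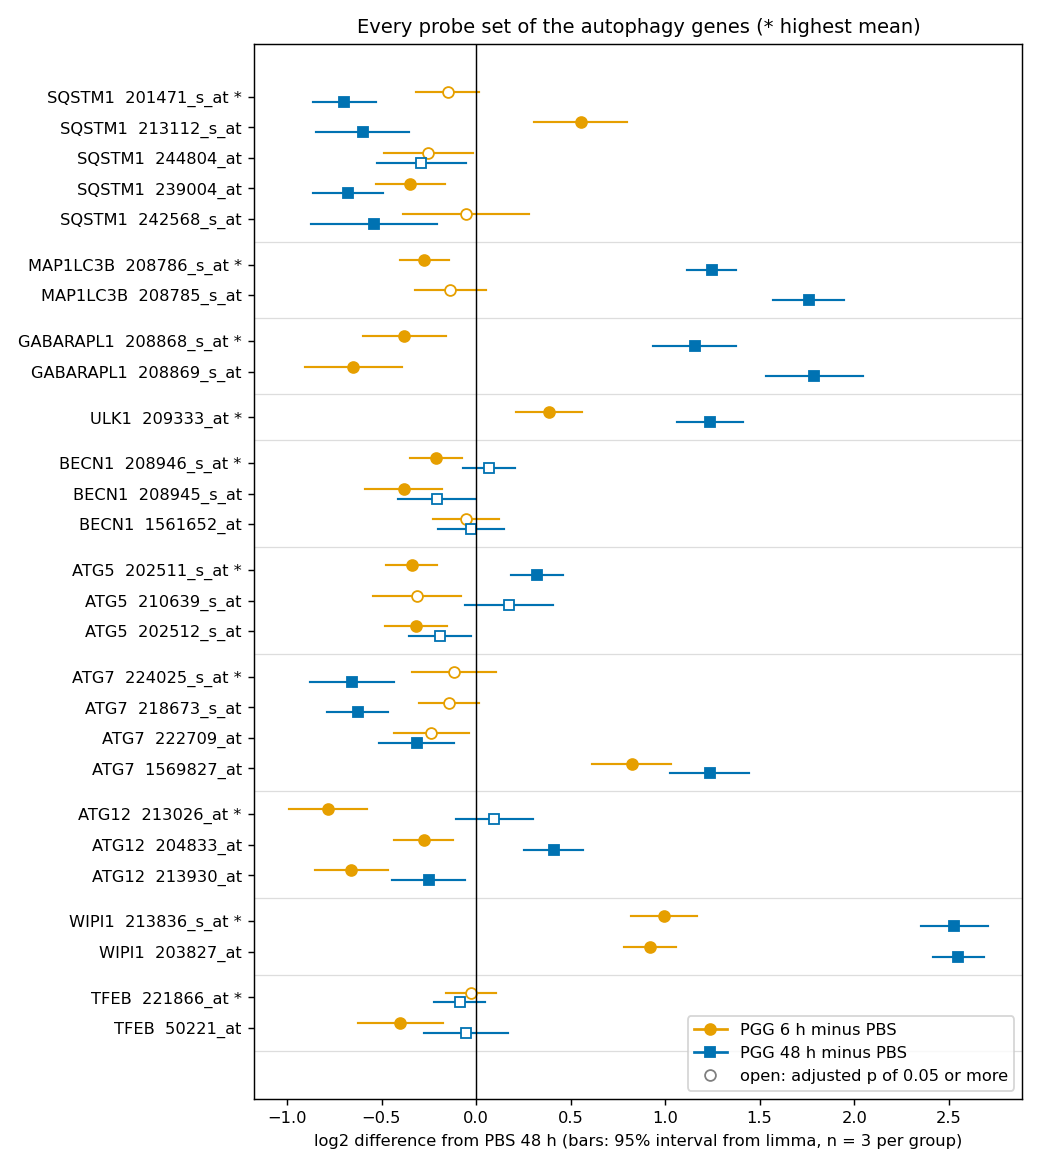
Log2 difference from PBS for each of the 27 probe sets of the autophagy genes at 6 hours (circles) and 48 hours (squares), with 95% intervals from limma and 3 arrays per group. Filled symbols reached an adjusted p under 0.05. Both probe sets of WIPI1, MAP1LC3B and GABARAPL1 lie above 1 at 48 hours, 1 probe set of ATG7 lies opposite to the other 3, and the SQSTM1 probe sets are split at 6 hours.

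Counted by probe set, 5 of the 27 were higher and 12 lower in the earlier comparison, where 12.2% and 12.5% of all probe sets were. At 48 hours 10 were higher and 8 lower, where 18.8% and 20.2% of all probe sets were, and from 6 to 48 hours 15 were higher and 6 lower, where 18% and 18.4% were. By the highest-mean probe set, the 3 arrays at 6 hours all lay above the 3 PBS arrays in 2 members and all below in 7, where 23% and 22.1% of all genes did. The 3 arrays at 48 hours all lay above PBS in 5 members and all below in 2, where 25.3% and 26.5% of all genes did. Between 6 and 48 hours the counts of such members were 7 and 2, where 25.8% and 26.7% of all genes were. The probe sets of WIPI1, MAP1LC3B and GABARAPL1 had the same direction at 48 hours, as did those of SQSTM1, whereas ATG5, ATG7, ATG12 and BECN1 each had probe sets of both signs.

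The change between the 2 times was tested directly, on the 6 PGG arrays against each other, which leaves the PBS arrays out of the difference. With no PBS at 6 hours, this comparison also contains a difference in time in culture, which cannot be told apart from longer PGG exposure. From 6 to 48 hours 7 members rose, 2 fell and TFEB did not pass the test, where 22.4% of all genes were called higher and 22% lower. The dimmer TFEB probe set 50221_at was higher by 0.35 in this comparison (SE 0.10, limma, adjusted p = 0.0191). GABARAPL1 and WIPI1 rose by 1.54 each (SE 0.10 and 0.08), MAP1LC3B by 1.52 (SE 0.06), ATG12 by 0.88 (SE 0.09), ULK1 by 0.85 (SE 0.08), ATG5 by 0.66 (SE 0.06) and BECN1 by 0.28 (SE 0.06, adjusted p = 0.00389). SQSTM1 fell by 0.55 (SE 0.07, adjusted p = 1.24e-04) and ATG7 fell by 0.54 (SE 0.10, adjusted p = 0.00126). At the stricter limits 3 members were called, where 4.09% of all genes were, and with a fold of 1.5 in place of a log2 difference 6 members, where 23.8% were. After adding the ACTB gap as a covariate BECN1 (0.23, adjusted p = 0.159) and ATG7 (-0.17, adjusted p = 0.359) were not called in this comparison.

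The factors that regulate autophagy genes were counted beside TFEB. Of 12 such factors the test called 1 higher and 4 lower at 6 hours, whereas at 48 hours it called 7 higher and 1 lower, with a median of 0.38. Of the relatives of TFEB, MITF and TFE3 rose by 0.71 and 0.24 at 48 hours, and TFE3 fell by 0.20 at 6 hours (limma, adjusted p = 0.0462). The dim relative TFEC did not pass the test at 48 hours (0.01, adjusted p = 0.934). FOXO1 was -0.04 from PBS at 6 hours, without passing the test, and rose by 1.03 at 48 hours. FOXO3 was lower than PBS by 0.64 at 6 hours and higher than PBS by 0.66 at 48 hours. DDIT3, which encodes the stress factor CHOP, fell by 0.47 early and rose by 2.15 late, and HIF1A fell by 0.42 at 48 hours.

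Downstream of the members, 9 of 14 genes of autophagosome fusion with lysosomes were higher and 1 lower at 48 hours, with a median of 0.48, after 3 higher and 1 lower at 6 hours. VPS41 of the HOPS tether rose early by 0.47 and late by 1.42, and the SNARE gene SNAP29 rose by 0.97 at 48 hours. Of 24 measured lysosome genes 16 were higher and 2 lower at 48 hours, with a median of 0.54, against 5 higher and 5 lower at 6 hours. The lysosome shares at 6 hours were 20.8% each way, where 15.5% of all genes were called each way. NEU1, which encodes a lysosomal sialidase, rose by 0.65 and 3.15, and LAMP2, a lysosome membrane protein, rose by 1.74 at 48 hours, while GAA, the lysosomal glucosidase, fell by 1.04. GAA (SE 0.14) read 7.35, 6.89 and 7.51 at 48 hours, lowest on replicate 2, the array with the widest ACTB gap.

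Of 28 measured genes of nutrient sensing around mTORC1, the kinase complex that restrains ULK1 and TFEB, 16 were higher and 7 lower at 48 hours, with a median of 0.38, after 5 higher and 9 lower at 6 hours. The share lower at 48 hours, 25%, lay near the 23.2% of all genes. RRAGD and RRAGC, which encode Rag GTPases that bring mTORC1 to the lysosome, fell early, by 0.47 and 1.08, and rose late, by 3.05 and 2.24. FNIP1, a partner of folliculin in the control of those GTPases, rose by 2.31 at 48 hours. DEPTOR, an inhibitory subunit of mTOR, was lower than PBS by 0.74 at 6 hours and higher than PBS by 2.42 at 48 hours. RPTOR and MLST8, subunits of mTORC1, fell by 0.83 and fell by 0.82 at 48 hours. MLST8 (SE 0.16) read 7.45, 6.72 and 7.34 at 48 hours, lowest on replicate 2, the array with the widest ACTB gap.

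**Figure D4:**
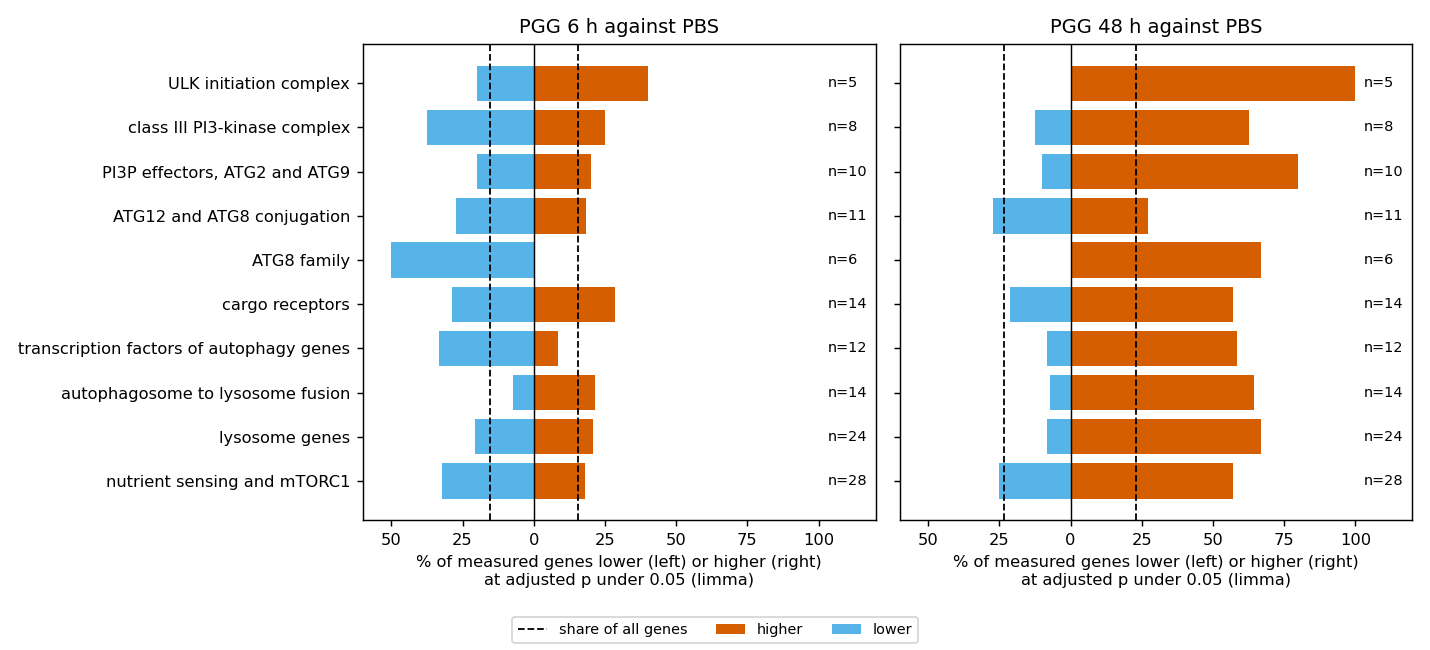
Share of measured genes called higher (right of 0) or lower (left of 0) in each of 10 gene lists, against PBS at 6 hours and at 48 hours, at an adjusted p under 0.05 from limma. Dashed lines mark the share of all genes called in that direction, 15.5% and 15.5% at 6 hours and 22.9% and 23.2% at 48 hours, and n is the number of measured genes. The conjugation list is the only list whose share of genes called higher at 48 hours, 27.3%, lies near that of all genes.

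Over the 10 lists, 81 of 132 measured genes were higher and 19 lower at 48 hours, or 61.4% and 14.4%, where 22.9% and 23.2% of all genes were. The earlier comparison gave 26 higher and 35 lower, or 19.7% and 26.5%, where 15.5% of all genes were called each way. Because the lists were chosen with earlier results of these data known, these shares are a description without a test. The shares of all genes include dim genes and were not matched to the lists for signal. Without the 10 members the counts were 76 and 17 of 122 at 48 hours and 24 and 30 at 6 hours. Under the ACTB covariate 75 listed genes were higher and 16 lower at 48 hours, and without PGG 48 h replicate 2 the counts were 83 and 19.

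The genes with the pair of differences at 6 and 48 hours nearest to that of a member were sought for WIPI1 and MAP1LC3B, the members with the largest differences at 48 hours, among 10479 genes called at either time. The likeness is the distance between the pairs of log2 differences over the 3 groups. Nearest to WIPI1 were TNFRSF11A (1.00 and 2.59), DKK3 (1.06 and 2.53) and BNIP3L (0.93 and 2.43), the last of which is a listed cargo receptor. Nearest to MAP1LC3B were TCF7L1 (-0.28 and 1.25), CLN8 (-0.28 and 1.28) and TIPARP (-0.31 and 1.22).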

How the data were processed

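RNA of Huh7 cells was hybridised to 9 Affymetrix arrays, 3 for each of PBS 48 h, PGG 6 h and PGG 48 h at 0.1 mg/mL. The authors normalized them with Affymetrix Expression Console, by RMA per the submitters' processing notes (version not given in the sources used here). The deposited table holds log2 signals per probe set, which were used without further scaling. RMA sets all arrays to 1 distribution, so a shift of all transcripts would not be seen. Groups came from the sample titles. Of 54675 probe sets 62 controls were left out of the tests. The platform annotation gave exactly 1 gene symbol for 41091 probe sets, several for 1801 and none for 11721. Only those with 1 symbol were used, and the one with the highest mean stands for a gene.

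Differences were tested with limma 3.58.1 in R 4.3.3, with 1 mean per group over the 9 arrays, eBayes and Benjamini-Hochberg adjustment over 54613 probe sets. Rose, fell, higher and lower are used of an adjusted p under 0.05, and against PBS unless another comparison is named. A stricter count uses an adjusted p under 0.005 with a log2 difference beyond 1.5. The methods set these limits on q-values of a t-test and on a mean difference of unstated scale, which a figure legend words as a fold, so limma, the methods' t-test and a fold of 1.5 were all run. No counts exist for arrays, so the 3 arrays per group limit the precision. On simulated data for PGG 48 h against PBS 48 h, over 54613 probe sets, 25 of 50 changes were recovered at a log2 size of 0.5, 47 of 50 at 1 and 50 of 50 each at 2 and 3. A required recovery of 48 at a size of 1 had been set first and was dropped after this run. The simulation changed only 50 probe sets per size, whereas at 48 hours 10264 were called higher and 11059 lower in the data. The adjustment depends on that share, so these recoveries do not carry over to the data.

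The 10 members and the 10 gene lists, with 136 genes of which 132 were measured, were chosen with earlier results of these data known, and the counts of the lists are a description. Named genes are the members, of each list some of the up to 3 largest rises and falls at each time, and the 3 genes most like each of 2 members. Genes within that rule that the text leaves out include rises, as of CTSA and RRAGA, and falls, as of CCPG1, WDR45, NAGLU and TSC2. NBR1, MAP1LC3A, MAP1LC3C, GABARAPL2, TFE3 and TFEC, where outside that rule, were named after their values were seen. Gene positions and upstream sequences came from RefSeq tables on GRCh38.p14. Alternatives were the probe set per gene, quantile and median scaling, a filter on dim probe sets, fits on 2 groups, the replicate number as a block, trended robust eBayes, array weights, the ACTB gap as a covariate, the methods' t-test, leaving out each array, and, added after the data were seen, adjustment over genes and the fold of 1.5. Probe positions, proteins and scanner files were not analysed here.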

Additional observations from a re-analysis of the deposited data

Results flagged for a closer look

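The difference between 48 hours and 6 hours of PGG also contains a difference in time in culture. It passed the limma test in 9 of the 10 members, where 22.4% of all genes were called higher and 22% lower. On the log2 scale it was 1.54 for WIPI1, 1.54 for GABARAPL1, 1.52 for MAP1LC3B, 0.88 for ATG12, 0.85 for ULK1, 0.66 for ATG5, 0.28 for BECN1, -0.54 for ATG7 and -0.55 for SQSTM1. With the ACTB difference between the 3′ and 5′ controls as a covariate, the calls of BECN1 (0.23, adjusted p = 0.159) and ATG7 (-0.17, adjusted p = 0.359) were lost. MAP1LC3B, GABARAPL1 and ATG5 were lower than PBS at 6 hours and higher at 48 hours.

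A signal outside the comparisons came from the probe set 211458_s_at, which is paired with GABARAPL3 and GABARAPL1 and was left out for having more than 1 symbol. It read 7.87, 7.84 and 7.75 in PBS, 7.01, 7.11 and 7.12 at 6 hours and 9.64, 9.54 and 9.80 at 48 hours, differing from PBS by -0.74 early and by 1.84 late (limma, adjusted p = 1.43e-08). Which of both genes it measures cannot be told apart.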

How the results depend on the processing

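Of 630 values of single members under an alternative, 603 kept their direction and their side of the threshold, 22 lost the call, 1 gained it and 4 changed sign. Some of the 603 had little or no room to move. MAP1LC3B, GABARAPL1, ATG5, ULK1, ATG12 and TFEB kept the same probe set where the suffixes _s_at and _x_at were avoided. ULK1 has only 1 probe set, so the mean of all probe sets could not change its difference either. Leaving out an array of the group not compared left the difference itself unchanged. The rises of WIPI1, ULK1, MAP1LC3B and GABARAPL1 at 48 hours were called under every alternative run. The count of members lower at 6 hours, 5 in all, ran from 3 to 5 on leaving out single arrays and was 3 without PBS replicate 3, PGG 6 h replicate 1 or PGG 6 h replicate 3. The count lower at 48 hours, 2, became 1 on the mean of all probe sets, on probe sets without the suffixes _s_at and _x_at, and with the ACTB gap as a covariate. From 6 to 48 hours the count lower, 2, became 0 without those suffixes, 1 with the covariate and 1 by the methods' t-test, and the listed genes lower, 25, became 15 with the covariate and 16 by that t-test. At the stricter limits the members called were 0 at 6 hours, 1 at 48 hours and 3 between both times, 2 at 48 hours on the mean of all probe sets, 0, 1 and 3 by the methods' t-test, and 2, 6 and 6 with a fold of 1.5, an alternative chosen after seeing the data. On leaving out single arrays the 3 ran from 2 to 3, with 2 without PGG 6 h replicate 1, PGG 48 h replicate 1 or PGG 48 h replicate 3. The 4 that changed sign were not called: on the mean of all probe sets ATG7 at 6 hours gave 0.082, BECN1 at 48 hours -0.054 and TFEB from 6 to 48 hours 0.14, and without those suffixes BECN1 at 48 hours gave -0.027. TFEB at 6 hours was called only on the mean of its probe sets (-0.21, adjusted p = 0.0188). The cause of these changes was not tested. Deviations of same-numbered arrays from their group means had r of -0.0892 to 0.162 (over 0.1 in 3 of 9 pairs), against -0.178 to 0.107 for other pairs. Deviations from a mean of 3 arrays are tied to each other, so these values cannot decide whether the numbers pair the arrays. With the replicate number as a block 5 members were higher and 2 lower at 48 hours. At 6 hours 4 instead of 5 were lower, without BECN1 (limma, adjusted p = 0.0530). Signals near the floor of the array, such as BECN1 1561652_at and ATG7 1569827_at, limit what those probe sets can show.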
